A study of Mus musculus with 3 samples.

Results

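The 8 Leydig cell steroidogenesis genes Star, Cyp11a1, Cyp17a1, Hsd3b1, Hsd3b6, Insl3, Lhcgr and Hsd17b3 were described here by their assembled transcript models in mouse testis. A model was counted as a gene's when the table named it with that gene's symbol. The rule found 13 models, 8 derived from RefSeq and 5 of another origin, of 50081 models in the whole table, and all 8 genes of 22426 gene symbols with a RefSeq-derived model.

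The series held 3 libraries made from total RNA of wild-type C57BL/6J testes, with 1 library per group. One group was CAGE, which reads capped 5′ ends of RNA, at 10.5 days post partum, another was CAGE in adults, and the other was PAS-Seq, which reads polyadenylated 3′ ends, in adults. The table gives positions and exon lengths for the series as a whole and no value per library. CAGE and PAS-Seq read the ends of RNA, and no source used here says which reads gave the exon chains. The internal structures described below are therefore not shown to come from these libraries. How deep each library was sequenced is unknown, no age or library could be compared with another, no value has a replicate error, and no test was run. Whole testis holds Leydig, Sertoli, peritubular, vascular, immune and germ cells together, and the presence of a model does not show that any of them expressed the gene.

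Leydig cells lie between the seminiferous tubules and make testosterone under luteinizing hormone from the pituitary. The hormone binds the receptor encoded by Lhcgr, cyclic AMP rises in the cell, and the protein encoded by Star brings cholesterol to the inner mitochondrial membrane. Cyp11a1 encodes the enzyme that cleaves the cholesterol side chain, Hsd3b1 and Hsd3b6 encode 3-beta-hydroxysteroid dehydrogenases, Cyp17a1 encodes the 17-alpha-hydroxylase and lyase, and Hsd17b3 encodes the enzyme that turns androstenedione into testosterone. Insl3 encodes a peptide hormone of Leydig cells that acts in testis descent through the receptor Rxfp2.

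The models were of 2 kinds. A RefSeq-derived model carried a RefSeq accession, and a CUFF model carried an identifier of the form given by the Cufflinks assembler beside the gene symbol. Each of the 8 genes had exactly 1 RefSeq-derived model, and all 8 of these models were coded NM. The codes begin with NM, NR or XX for these kinds of model, and no source used here says what they mean. Across all gene symbols with a RefSeq-derived model, 62.3% had at least 1 model coded other than XX. A CUFF model was present for 3 of the 8 genes, Lhcgr with 3 models and Hsd3b1 and Hsd17b3 with 1 each, against 28.5% of all gene symbols. The same 3 genes were those with at least 2 models, against 38.5% of all. Coordinates below are those of the table, in the mm9 build and counted from 1.

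Promoter windows of the genes are shown because CAGE addresses their starts and because several transcription factors are known to act on Leydig genes near the start. RefSeq promoter windows of 300 bases (250 before the annotated start and 50 from it on, GRCm38.p6) were found by symbol for 6 of the 8 genes, 7 windows in all, with 2 for Cyp11a1. Star and Cyp17a1 had no entry. The build differs from that of the table, so whether a window begins at the same start as the table's model was not established. Cyp11a1 had a single model and so 1 start, and at most 1 of its 2 windows can lie there. The motifs were searched on both strands. AGGTCA is the core recognised by the nuclear receptor SF-1, encoded by Nr5a1. Its longer form CAAGGTCA contains the core. AGATAA is bound by GATA factors. TGACG is the core of the cyclic AMP response element. The last was the TATA box, searched as TATAAA. Of the 7 windows, 5 held at least 1 of these motifs, against 49.9% of 32851 windows over all genes, and these 5 are printed with the motif in capitals.
Cyp11a1, chr9:58014702-58015001, plus strand: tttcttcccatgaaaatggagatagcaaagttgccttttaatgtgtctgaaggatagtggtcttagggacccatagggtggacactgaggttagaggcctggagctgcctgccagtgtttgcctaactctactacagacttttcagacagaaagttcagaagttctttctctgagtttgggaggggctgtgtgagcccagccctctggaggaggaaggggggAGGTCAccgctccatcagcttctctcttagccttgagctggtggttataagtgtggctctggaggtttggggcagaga
Cyp11a1, chr9:57997774-57998073, plus strand: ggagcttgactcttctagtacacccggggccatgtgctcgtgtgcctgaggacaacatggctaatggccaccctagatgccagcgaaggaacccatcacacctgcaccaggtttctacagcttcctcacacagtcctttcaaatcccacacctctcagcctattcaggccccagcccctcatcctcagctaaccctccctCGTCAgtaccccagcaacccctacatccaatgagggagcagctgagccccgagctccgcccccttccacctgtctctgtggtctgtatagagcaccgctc
Lhcgr, chr17:88791965-88792264, minus strand: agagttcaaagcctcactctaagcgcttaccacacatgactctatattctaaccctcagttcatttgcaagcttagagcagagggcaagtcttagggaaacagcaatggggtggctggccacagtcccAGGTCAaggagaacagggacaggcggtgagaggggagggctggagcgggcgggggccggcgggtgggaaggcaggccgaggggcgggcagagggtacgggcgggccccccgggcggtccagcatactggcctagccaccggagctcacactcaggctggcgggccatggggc
Hsd3b6, chr3:98814394-98814693, minus strand: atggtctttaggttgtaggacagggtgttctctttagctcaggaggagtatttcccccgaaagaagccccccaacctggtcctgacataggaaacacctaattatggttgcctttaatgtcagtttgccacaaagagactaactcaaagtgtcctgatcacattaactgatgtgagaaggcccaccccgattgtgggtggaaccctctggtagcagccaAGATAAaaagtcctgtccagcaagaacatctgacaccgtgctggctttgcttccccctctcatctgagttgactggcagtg
Hsd3b1, chr3:98859745-98860044, minus strand: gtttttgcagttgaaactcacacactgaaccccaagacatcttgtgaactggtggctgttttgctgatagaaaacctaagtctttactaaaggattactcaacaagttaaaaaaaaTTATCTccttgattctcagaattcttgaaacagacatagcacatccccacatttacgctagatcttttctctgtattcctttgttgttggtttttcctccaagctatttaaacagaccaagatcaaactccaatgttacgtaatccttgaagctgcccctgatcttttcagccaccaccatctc

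AGGTCA was in 2 of the 7 windows, against 16.3% of 32851 windows of this length over all genes. In the downstream window of Cyp11a1 it began 28 bases before the annotated start, and in the Lhcgr window it began 122 bases before it. AGATAA was in 2 windows, against 11.2% of all. It began 31 bases before the annotated start of Hsd3b6 and 134 bases before that of Hsd3b1, where it lay on the other strand. The windows of these paralogs thus held the same motif at different distances and on different strands. TGACG was in 1 window, upstream of the other start of Cyp11a1, against 20.8% of all, and it began 50 bases before that start on the other strand. CAAGGTCA (1.56% of all windows) and TATAAA (13.6%) were in none of the 7. The share of G and C was 64.0% in the Lhcgr window, 61.3% in the Insl3 window, and 58.3% and 51% in the upstream and downstream windows of Cyp11a1. It was 49.0% in the Hsd3b6 window, 48.7% in the Hsd17b3 window and 38.7% in the Hsd3b1 window. The share over all windows was not computed.

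The RefSeq-derived models ranged from the compact Insl3 to the long Lhcgr. Their genomic span had a median of 8269 bp (1326 to 50428), against a median of 16883 bp over 28031 RefSeq-derived models. Their spliced length had a median of 1821.5 nt (587 to 4007), against 2371 nt over all. The number of exons had a median of 7.5 (2 to 11), against 7 over all. The first intron was the longest in 3 of the 7 genes with at least 2 introns, Cyp17a1, Hsd3b6 and Lhcgr, against 42% of 23206 RefSeq-derived models with at least 2 introns.

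For the receptor, Lhcgr lay on chromosome 17 (89140889 to 89191316, minus strand) with 11 exons and 2553 nt of spliced sequence. Introns made up nearly all of its span of 50428 bp, of which exons took 5.06%, and the first intron alone had 19715 bp. Its 9 internal exons had 72, 75, 75, 75, 78, 69, 75, 186 and 81 nt in transcript order, and each is a multiple of 3. Of 14775 RefSeq-derived models with at least 5 internal exons, 1.04% had this property, and Lhcgr was the only one of the 5 Leydig genes of that size to have it. The repeated lengths close to 75 nt belong to the part of the gene that encodes the hormone-binding leucine-rich repeats, while the last exon of 1589 nt encodes the transmembrane part.

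For cholesterol import, Star lay on chromosome 8 (26918985 to 26926454, plus strand) with 7 exons and 4007 nt. Its last exon of 3210 nt was 80.1% of the spliced length and as long as or longer than that of 89.1% of multi-exon RefSeq-derived models. No other RefSeq-derived model of the 8 genes had a last exon of that size. The end of Star lay 887 bp from the end of the nearest model on the other strand, that of Ash2l, a subunit of histone methyltransferase complexes, so these genes lay tail to tail.

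The mitochondrial and microsomal P450 genes had short last exons. Cyp11a1 lay on chromosome 9 (57862824 to 57874830, plus strand) with 9 exons, 1774 nt and a last exon of 330 nt, and 15.5% of multi-exon RefSeq-derived models had a last exon as short or shorter. Its longest intron was the fifth, of 4211 bp. Cyp17a1 lay on chromosome 19 (46741655 to 46747490, minus strand) with 8 exons, 1841 nt and a last exon of 444 nt (23% as short or shorter). The spliced lengths of these P450 genes thus differed by little, while their spans were 12007 bp for Cyp11a1 and 5836 bp for Cyp17a1. Neither gene had a CUFF model. The nearest model after the end of Cyp17a1 on its own strand was an unnamed single-exon CUFF model of 1889 nt coded XX, 3987 bp away.

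Hsd17b3, the gene of the last step to testosterone, lay on chromosome 13 (64159582 to 64190509, minus strand) with 11 exons. It had as many exons as Lhcgr, in a spliced length of only 1286 nt, and its longest intron was the second, of 10747 bp. Its last exon of 406 nt had the same length as that of Insl3.

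Insl3 was the smallest of the 8, with 2 exons and 587 nt on chromosome 8 (74213151 to 74214476, plus strand), and 5.34% of RefSeq-derived models were as short or shorter when spliced. It lay inside a model of another gene. The longer RefSeq-derived model of Jak3, a kinase of cytokine receptors, ran from 74200282 to 74214476 on the same strand, and its last exon was identical to the last exon of Insl3, all 406 nt of it. The first exon of Insl3 lay within the last intron of that Jak3 model, of 2009 bp, and the Insl3 start was 1089 bp past the exon before that intron. Another Jak3 model, of 24 exons and coded XX, ended 938 bp before the Insl3 start. Reads from the 406 nt exon alone cannot be assigned to either gene. Of all gene symbols with a RefSeq-derived model, 4.73% shared an exon base with another symbol on the same strand, and Insl3 was the only one of the 8 to do so.

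**Figure D1:**
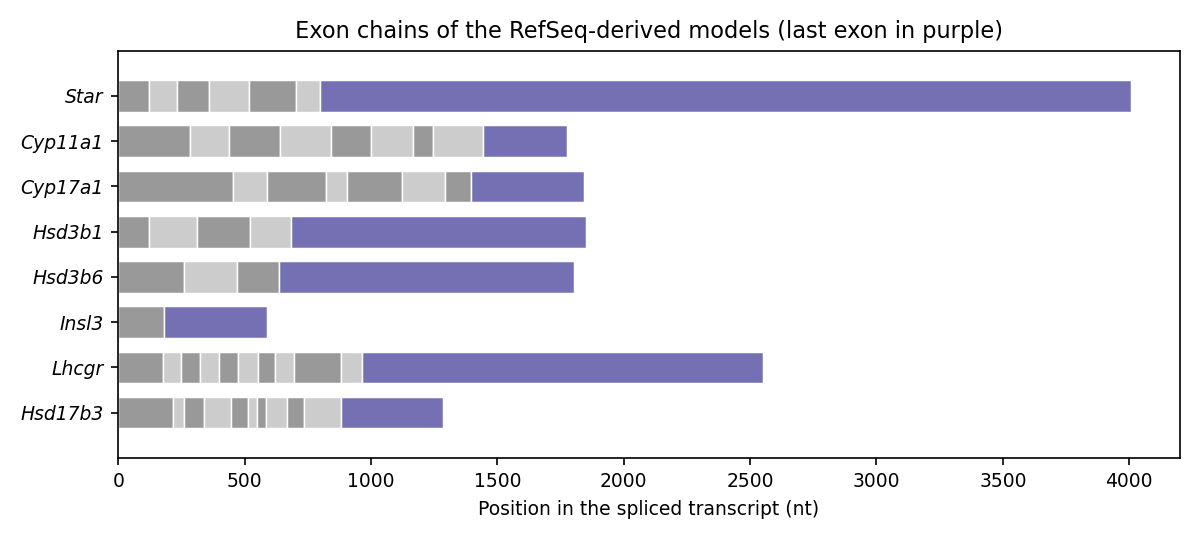
Exons of the 8 RefSeq-derived models laid end to end along the spliced transcript (x axis, nt), 1 gene per row, with the last exon in purple and the others in alternating greys. The last exon takes 3210 of 4007 nt in Star, against 330 of 1774 nt in Cyp11a1, and Lhcgr shows a run of short exons before a last exon of 1589 nt.

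**Figure D2:**
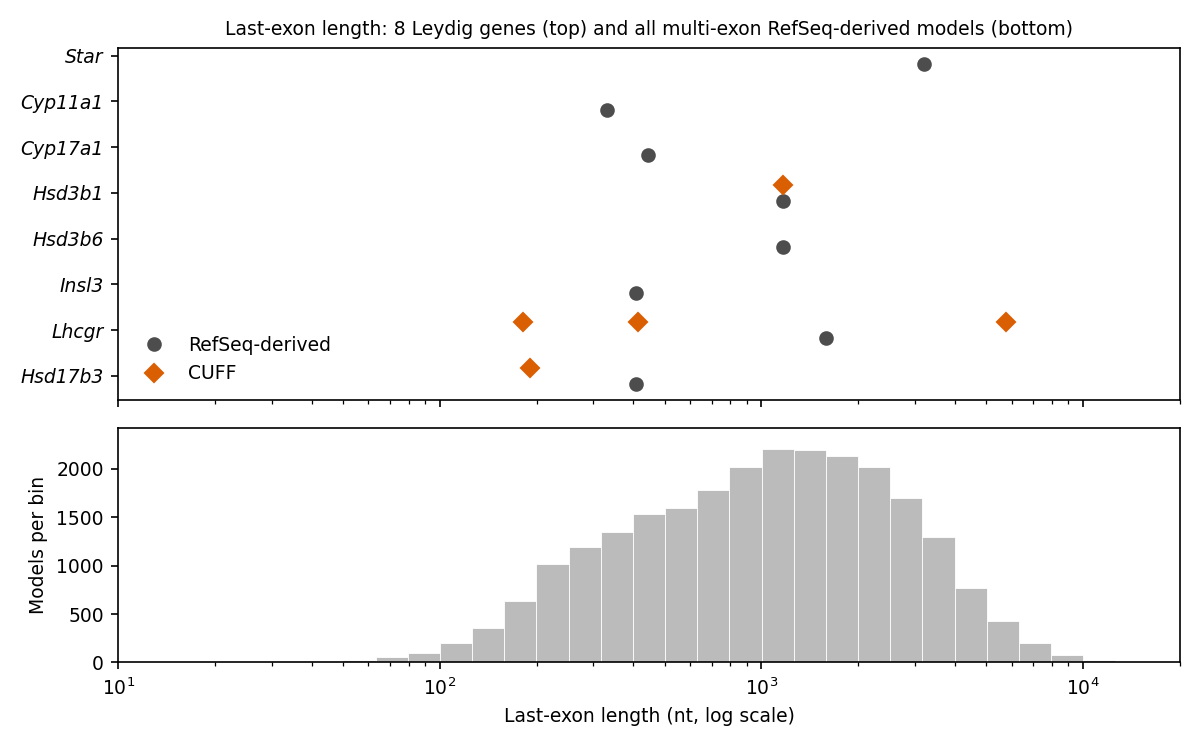
Last-exon length (x axis, nt, log scale) of each model of the 8 genes, with CUFF models as orange diamonds and RefSeq-derived models as grey circles, above a histogram of 24978 multi-exon RefSeq-derived models (y axis, models per bin). The 4 Lhcgr models spread over 181, 412, 1589 and 5775 nt, whereas the Hsd3b1 models sit side by side at 1170 and 1167 nt.

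The last exon of the 8 RefSeq-derived models had a median length of 805.5 nt (330 to 3210), against 1068 nt (quartiles 480.25 and 2058) over all multi-exon RefSeq-derived models. The plot of last-exon length shows 4 of the 8 genes at 330 to 444 nt, namely Cyp11a1, Insl3, Hsd17b3 and Cyp17a1. Hsd3b1 and Hsd3b6 lay close together at 1167 and 1168 nt, and Lhcgr and Star were longer. Over the 13 models there were 11 distinct starts and 12 distinct ends when positions up to 50 nt apart were merged. The 5 genes with a single model (Star, Cyp11a1, Cyp17a1, Hsd3b6 and Insl3) contributed 1 start and 1 end each. Lhcgr had 2 starts and 4 ends, Hsd17b3 had 2 starts and 2 ends, and Hsd3b1 had 2 starts and 1 end. At least 2 distinct starts were thus found for 3 of 8 genes, against 26.7% of all gene symbols, and at least 2 distinct ends for 2 of 8, against 23% of all.

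The CUFF models of these genes reused RefSeq splice junctions. Of their 32 introns, 31 were identical to an intron of the RefSeq-derived model of the same gene, and the exception was in Lhcgr. The Lhcgr models held 8, 9 and 8 of the 32 and share most of them, so the same junctions were counted repeatedly. The share of introns found in RefSeq over all CUFF models was not counted. Every intron was in RefSeq for 4 of the 5 CUFF models, against 40% of 8176 multi-exon CUFF models across all symbols. All 5 models differed from RefSeq at the start or the end by more than 50 nt. The share of all CUFF models that do so was not counted. Over all of them, only 25.6% had a start and 29.3% an end within 50 nt of RefSeq, so such differences were common. Of the 5, 2 also differed inside, by a skipped exon in CUFF.12233.1 of Lhcgr and a kept intron in CUFF.16933.2 of Hsd3b1. CUFF models were set against the RefSeq-derived models of their symbol on the same strand, which was possible for 8660 of 9495 CUFF models with a symbol.

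In 3 of the 5 CUFF models the end lay inside a RefSeq intron of the gene, against 13.3% of the 8660. All 3 had the same form, in which a RefSeq exon ran on past its splice donor into the intron after it and the model ended there. They were also the 3 models with an end more than 50 nt from, and not downstream of, every RefSeq end, against 45.9% of the 8660. Among the 1154 CUFF models that ended inside an intron, 65.6% had this form. The 3 models came from 2 genes, Lhcgr and Hsd17b3, and the pair in Lhcgr share their start and first 8 introns, so they are not independent.

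In Lhcgr, CUFF.12233.3 (89149343 to 89191333) had 10 exons and 1081 nt, 42.3% of the RefSeq spliced length. It used the first 9 RefSeq introns and ended 100 nt into intron 10, with a last exon of 181 nt against 1589 nt in RefSeq. CUFF.12233.4 (89152858 to 89191333) had 9 exons and 1126 nt, used the first 8 RefSeq introns and ended 226 nt into intron 9, with a last exon of 412 nt. Neither model held the last RefSeq exon, which encodes the transmembrane part of the receptor. Their ends lay 8454 and 11969 bp before the RefSeq end. Both began 17 nt upstream of the RefSeq start, at the same base, and both were coded NM. A start within 50 nt of a RefSeq start was found for these 2 of the 5 CUFF models of the 8 genes, against 25.6% of all.

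The other Lhcgr model, CUFF.12233.1 (89136703 to 89171420), had the opposite form. It lacked the first RefSeq exon, beginning 3 nt into exon 2 and 19896 bp past the RefSeq start, and it ran 4186 bp past the RefSeq end. Its last exon had 5775 nt, 3.63-fold that of RefSeq, and its spliced length was 6483 nt. An end beyond the RefSeq end was found for 24.8% of the 8660 CUFF models, with a median extension of 1284 nt (quartiles 419.5 and 3323). This model also left out RefSeq exon 4, a 75 nt exon with the length of 25 codons in the run of leucine-rich repeat exons, and the intron of 4614 bp that spans it was the exception named above. At least 1 RefSeq exon was skipped in 19.5% of CUFF models. The code of this model was XX, unlike that of the other 3 Lhcgr models. Among 7285 CUFF models of symbols whose RefSeq-derived models include 1 coded other than XX, 4.71% were coded XX, and 35% of those 343 ran past the RefSeq end by more than 50 nt. The extended end of Lhcgr lay 22212 bp from the nearest model on the other strand, that of Gtf2a1l, a germ-cell paralog of a general transcription factor subunit. On the other side, the nearest model of the same strand was that of Fshr, the receptor of follicle-stimulating hormone, 192958 bp upstream.

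In Hsd17b3, CUFF.6926.2 (64169437 to 64190674) had 6 exons and 870 nt, 67.7% of the RefSeq spliced length. It used the first 5 of 10 RefSeq introns and ended 155 nt into intron 6, 9855 bp before the RefSeq end. The exon that ran on had 36 nt in RefSeq and 191 nt in this model. Its start lay 165 nt upstream of the RefSeq start, which lengthened the first exon to 380 nt, against 215 nt in RefSeq. A start more than 50 nt upstream of every RefSeq start was found for 32.6% of CUFF models, with a median distance of 328 nt. This was the only CUFF model of the 8 genes with such a start.

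**Figure D3:**
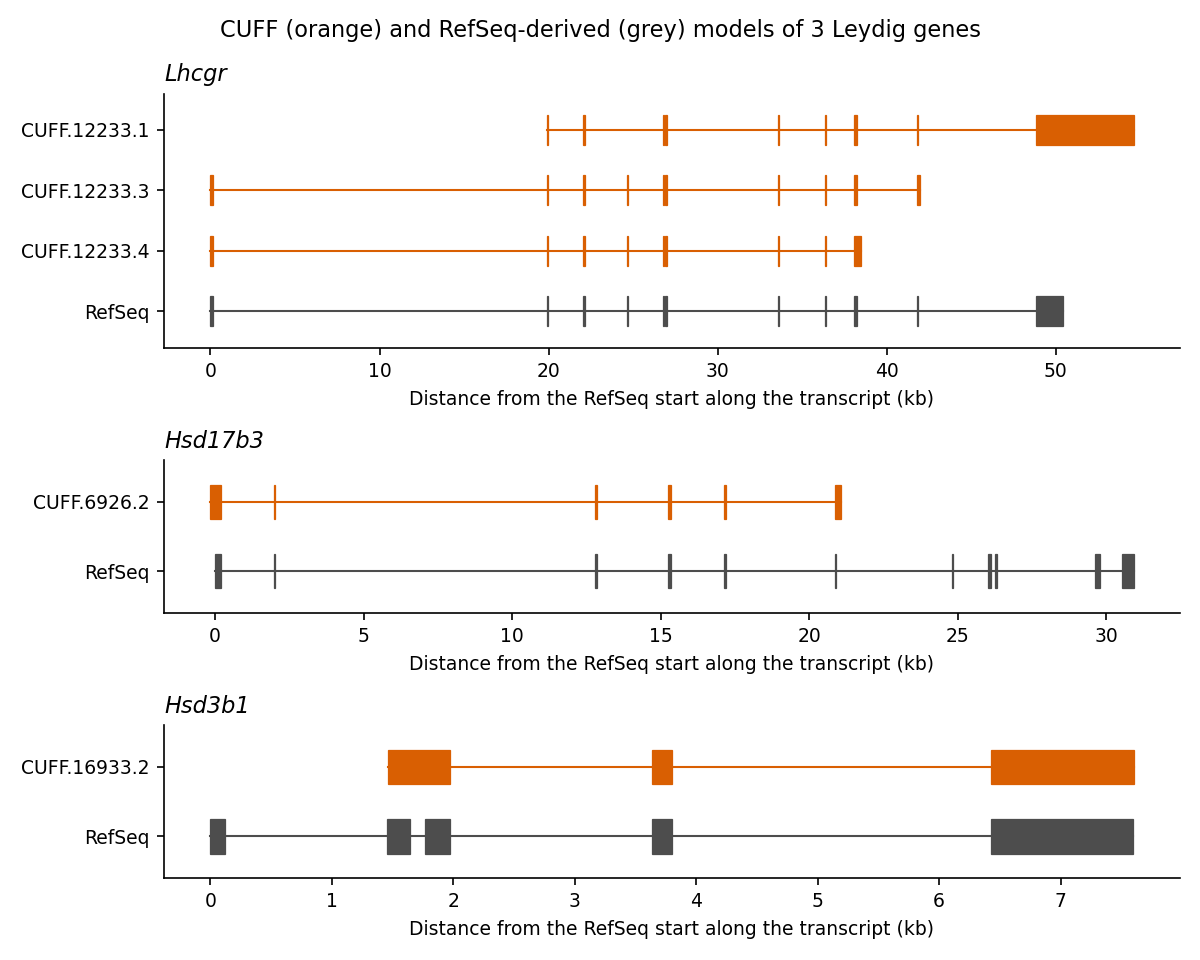
Exons (boxes) and introns (lines) of the CUFF models (orange) and the RefSeq-derived model (grey) of Lhcgr, Hsd17b3 and Hsd3b1, drawn to scale against distance from the RefSeq start along the transcript (x axis, kb). The 2 shorter Lhcgr models and the Hsd17b3 model stop inside introns, while CUFF.12233.1 begins at the second RefSeq exon and runs past the RefSeq end.

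In Hsd3b1, CUFF.16933.2 (98656117 to 98662253) shared the RefSeq end to within 3 nt and began inside the gene. The RefSeq-derived model (chromosome 3, 98656120 to 98663717, minus strand) had 5 exons of 123, 190, 207, 165 and 1167 nt. The CUFF model had 3 exons of 511, 165 and 1170 nt. Its start lay 11 nt into RefSeq exon 2, 1464 bp past the RefSeq start, and its first exon kept RefSeq intron 2, of 125 bp, between exons 2 and 3. A start more than 50 nt from, and not upstream of, every RefSeq start was found for this model and CUFF.12233.1, 2 of the 5, against 41.8% of all. The spliced lengths in Hsd3b1 were almost equal, 1846 nt in the CUFF model and 1852 nt in RefSeq, although the exon chains differed. At least 1 RefSeq intron was kept inside an exon in 9.46% of the 8660 CUFF models. An end within 50 nt of a RefSeq end was found for this 1 of the 5 CUFF models, against 29.3% of all.

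Hsd3b6, the isoform known from adult mouse Leydig cells, lay next to Hsd3b1 on the same strand of chromosome 3 (98609427 to 98618366), 37753 bp after its RefSeq end. Its 4 exons had 262, 207, 165 and 1168 nt. The last 3 exons thus had the lengths of those of Hsd3b1, apart from 1 nt in the last, and the genes differed in their 5′ exons, with 1 in Hsd3b6 and 2 in Hsd3b1 before the exon of 207 nt. Paralogs can share reads, and no source used here says how such reads were placed.

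Both genes belonged to a cluster of 6 Hsd3b genes in 360715 bp of chromosome 3 (98303003 to 98663717), all on the minus strand, in the order Hsd3b1, Hsd3b6, Hsd3b3, Hsd3b2, Hsd3b5 and Hsd3b4 along that strand. An exon of 165 nt was found in all 6. The codes split the cluster. The RefSeq-derived models of Hsd3b1 and Hsd3b6 were coded NM, and those of Hsd3b3, Hsd3b2, Hsd3b5 and Hsd3b4 were all coded XX. The CUFF model of Hsd3b1 was also coded NM, as was the CUFF model under the Hsd3b3 symbol, CUFF.16920.1 (98515030 to 98566333). Its first 3 exons, of 117, 206 and 165 nt, were identical to exons of Hsd3b3, and its last exon, of 1211 nt, was identical to the last exon of Hsd3b2, so the model joined neighbouring paralogs and ran 30369 bp past the Hsd3b3 end. Of the 8660 CUFF models, 3.35% shared an exon base with a RefSeq-derived model of another symbol on the same strand, and none of the 5 CUFF models of the 8 genes did.

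**Figure D4:**
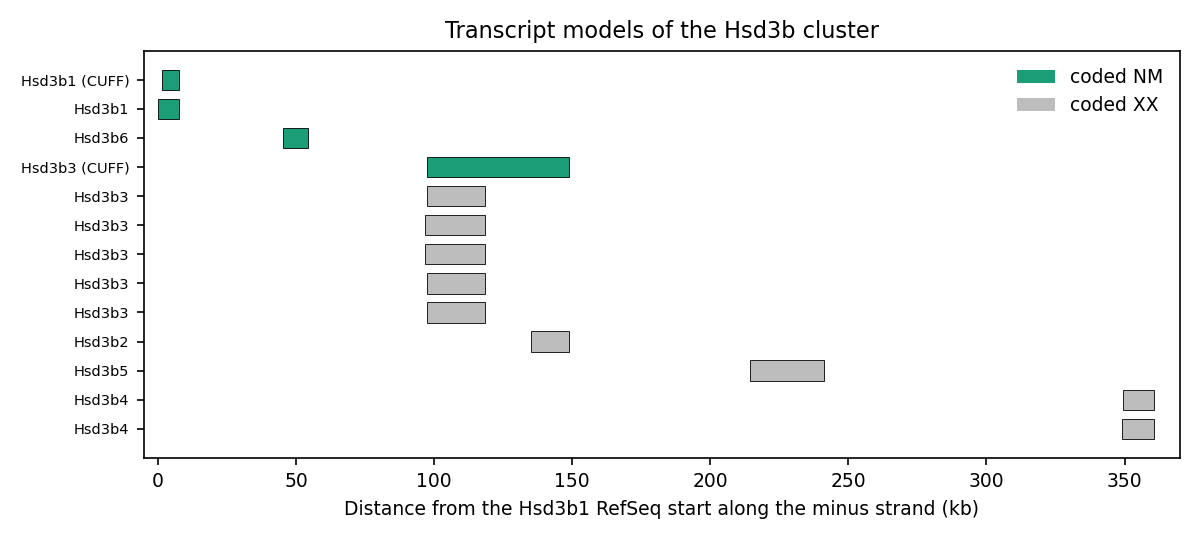
Span of each transcript model of the Hsd3b cluster (rows) against distance from the Hsd3b1 RefSeq start along the minus strand (x axis, kb), coloured by code. Models of Hsd3b1 and Hsd3b6 are coded NM and the RefSeq-derived models of the other 4 genes XX, and the CUFF model of Hsd3b3 spans 2 genes.

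Across the wider pathway, 52 other genes were looked up in 7 lists chosen with earlier results of this table known, and 43 of them had a model coded other than XX (82.7%, against 62.3% of all gene symbols). A CUFF model was present for 19 of the 52 (36.5%, against 28.5% of all). The genes with XX models alone fell in 3 lists. Among 12 later and side enzymes of steroid synthesis they were Srd5a2 (a 5-alpha-reductase), Hsd11b1 (which regenerates active glucocorticoid), Cyp19a1 (aromatase), and Cyp21a1 and Cyp11b1, both adrenal enzymes of corticosteroid synthesis. The aldosterone synthase gene Cyp11b2, also adrenal, had a model coded NM. In the 3-beta-dehydrogenase list, which includes Hsd3b1 and Hsd3b6, they were Hsd3b2, Hsd3b4 and Hsd3b5. Hsd3b3 counted among the 43 only through its CUFF model, which joined it to Hsd3b2, as its RefSeq-derived models were all coded XX. In the list of LH and INSL3 signalling it was Cga, the pituitary subunit shared by glycoprotein hormones, whereas Lhb had a model coded NM. In each of the other lists every gene found had a model coded other than XX. There were 8 of 8 for mitochondrial import and electron supply, 4 of 4 for microsomal cofactors, 7 of 7 for cholesterol supply and 10 of 10 for regulators. No model was named Cyb5a, while Cyb5, the symbol listed beside it, was present.

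**Figure D5:**
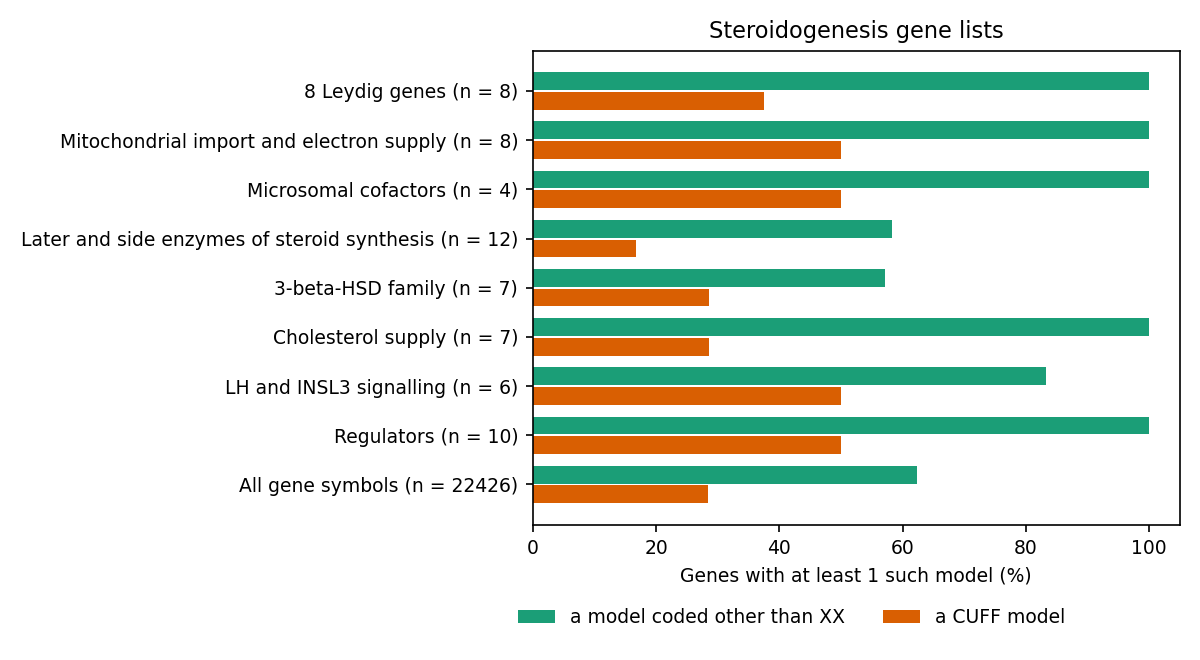
Share of genes (x axis, percent) with a model coded other than XX (green) and with a CUFF model (orange) in the 8 Leydig genes, the 7 pathway lists and all 22426 gene symbols, with the number of genes in parentheses. Of the pathway lists, those of later enzymes and of the 3-beta-dehydrogenase family have the lowest shares coded other than XX, at 58.3% and 57.1%.

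The 19 pathway genes had 27 CUFF models. Of these, 1, of Cyp19a1, ended inside an intron of its gene, against 13.3% of the 8660 CUFF models across all symbols. Of the 27 models, 8 ended more than 50 nt past the RefSeq end, 9 within 50 nt of it and 10 before it. Over the 8660 the shares were 24.8%, 29.3% and 45.9%. Models of the same gene can share an end, as those of Prkar1a and of Stard4 named below do, so the 27 are not independent. The regulator genes with CUFF models included Nr5a1, which encodes SF-1, Gata4, Gata6 and Creb1. The Nr5a1 model began 3557 bp past the RefSeq start and ended 2 nt past the RefSeq end. Both Gata4 models began 26714 bp upstream of the RefSeq start and shared its end. In cholesterol metabolism, the CUFF model of Lipe, hormone-sensitive lipase, ended 452 bp before the RefSeq end. Among genes of mitochondrial supply, Fdx1, the ferredoxin that passes electrons to Cyp11a1, had models with starts 537 bp before and 278 bp past the RefSeq start, and both models of Stard4, a carrier of cholesterol in the cytosol, ended 2241 bp past the RefSeq end. Stard3 and Vdac1 had 1 CUFF model each, which ended 410 and 3738 bp before the RefSeq end. In signalling, the 3 models of Prkar1a, a regulatory subunit of protein kinase A, all ended 373 bp past the RefSeq end, the model of the catalytic subunit gene Prkaca ended 1142 bp before it, and that of Rxfp2, the INSL3 receptor, ended 433 bp before it. Other CUFF models were of Cyb5, H6pd, Akr1c14, Cyp19a1 and Hsd3b3.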

How the data were processed

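The series held CAGE libraries at 10.5 days post partum and in adults and a PAS-Seq library in adults, 1 each. It also held 1 deposited table of 12 columns in BED layout, with 1 transcript model per line. The values of the table are positions, exon numbers and exon lengths. The submitters' processing notes name TopHat2 2.0.4 and the genome build mm9. No source used here says how models were assembled, filtered or coded.

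From the deposited table, models were selected by symbol, and exons were put in transcript order. Starts or ends up to 50 nt apart were merged. CUFF models were compared with RefSeq-derived models of their symbol on the same chromosome and strand, with introns matched to the base, in Python 3.11.15 with numpy 2.4.6. The comparison was checked on simulated models. Figures were drawn with matplotlib 3.10.9. Nothing was filtered out. The genes, lists and rules were chosen with earlier results of these data known. All 8 genes are named, with every model. In pathway lists, genes with a CUFF model or with XX models alone are named, except a few that are counted but not reported here by name. Promoter windows are from RefSeq (GRCm38.p6). No mm9 sequence was used, so sequence at splice sites and ends was not analysed here.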

Additional observations from a re-analysis of the deposited data

How the results depend on the processing

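No paired analysis was possible because each group had 1 library and the table gives no value per library. With a tolerance of 0 nt in place of 50 nt, no CUFF model of the 8 genes had a RefSeq start (0 of 5) or a RefSeq end (0 of 5), and 3 began upstream of it. With 200 nt, 0 began upstream, because the Hsd17b3 start lies 165 nt before that of RefSeq. The count of 3 ending upstream of the RefSeq end held at both tolerances. Distinct starts were 12 at 0 nt and 10 at 200 nt, and distinct ends 13 and 12. Assigning models by exon overlap on the same strand added the longer Jak3 model to Insl3, giving 14 models. Without microRNA, olfactory and vomeronasal receptor symbols, 68.1% of symbols had a model coded other than XX and 31% a CUFF model, and among symbols with a multi-exon model 68.4% and 32%. Searching only the 250 bases before the start left each motif in the same number of member windows. Depth is unknown, and a gene without a CUFF model is not shown to have a single transcript.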
